A study of Mus musculus with 24 samples.

Results

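The 10 genes described here are markers of vascular mural cells, the smooth muscle cells and pericytes that wrap blood vessels. They were chosen by name, with earlier results of these data known: Acta2, Myh11, Tagln, Cnn1, Mylk, Pdgfrb, Rgs5, Cspg4, Notch3 and Mcam. All 10 are among the 36144 genes of the deposited count table, and all 10 were among the 13129 that passed the filter on low counts. RNA with poly-A tails was sequenced from the interscapular brown fat (iBAT) of 24 mice, 6 to 8 months old, 30 minutes after they had received deschloroclozapine (DCZ) or saline, to ask what chemogenetic activation of the sympathetic neurons that project to iBAT does there. The mice form 4 groups of 6, with 3 females and 3 males in each: Th-Cre mice given DCZ, Th-Cre mice given saline, wild-type (WT) mice given DCZ and WT mice given saline. The Th-Cre genotype is labelled B6.129X1- Tht1(cre)Te/Kieg and the WT genotype C57Bl/6J. In Th-Cre mice, Cre recombinase is made where the tyrosine hydroxylase gene is active, which marks catecholamine-making cells such as sympathetic neurons. The gene itself, Th, had 1 read over the 24 libraries, so the fat RNA does not check the genotype labels. DCZ activates designer receptors built from muscarinic ones. The sources used here name neither the receptor nor its delivery, nor whether the WT mice carried it.

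Smooth muscle cells surround arterioles and larger vessels and set their diameter. Their contraction runs on smooth muscle actin and myosin, and it is switched on when a calcium-dependent kinase phosphorylates the myosin light chain. Pericytes sit on capillaries, where platelet-derived growth factor B from the endothelium recruits them through the receptor Pdgfrb, and Notch3 receives ligands presented by neighbouring cells. Brown fat is densely supplied with capillaries, and its arterioles are innervated by sympathetic fibres that release noradrenaline.

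Each library came from 1 mouse, with total counts of 11933532 to 22865592. All 12 WT libraries carry lower library numbers than all 12 Th-Cre libraries, so genotype and library order cannot be told apart. A set of 6 libraries held skeletal muscle transcripts, with a mean log2 CPM (counts per 1000000 counts) of 13 muscle markers above 1. They were 2 Th-Cre DCZ libraries (DN2075 and DN2091), 3 Th-Cre saline libraries (DN2086, DN2087 and DN2094) and 1 WT saline library (12). Of these 6, 4 came from females and 2 from males. Results below are given with all 24 libraries and, where the call differs, without those 6. In bulk tissue, fewer mural cells and less RNA per mural cell cannot be told apart.

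All 10 genes had reads in every library. Together they took 0.0527% to 0.0766% of all counts, which is 6290 to 13854 reads per library. Divided by exon length, Rgs5 was the most abundant, at 72.1 ± 8.36 CPM per kb (SD, n = 24 libraries). Rgs5 encodes a regulator that speeds the shut-off of G proteins and is a classical pericyte transcript. Acta2, smooth muscle actin, came next at 14.2 ± 3.64 CPM per kb, followed by Mcam at 10.3 ± 1.73 and Tagln at 10.1 ± 2.74 CPM per kb. Mcam encodes the adhesion molecule also called CD146, which endothelial cells can carry too, and Tagln encodes the actin-binding protein transgelin. Pdgfrb stood at 7.38 ± 1.3 CPM per kb and Cspg4, which encodes the NG2 proteoglycan of pericytes, at 5.84 ± 1.02 CPM per kb. Notch3 had 4.56 ± 0.742, the smooth muscle myosin heavy chain gene Myh11 4.45 ± 1.12 and the myosin light chain kinase gene Mylk 3.18 ± 0.543 CPM per kb. Cnn1, which encodes the actin-binding protein calponin, was the lowest at 0.72 ± 0.167 CPM per kb, from 15 to 50 reads per library.

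In this order of levels, the ranges of mean ± SD did not overlap between Rgs5 and Acta2 or between Mylk and Cnn1. They overlapped for every other pair of neighbours. Rgs5 exceeded Acta2 in 24 of 24 libraries, whereas Mcam exceeded Tagln in 14 and Notch3 exceeded Myh11 in 13. With the longest transcript as the length in place of all exons, 3 neighbouring pairs changed places: Mcam and Tagln, Pdgfrb and Cspg4, and Notch3 and Myh11. The spread across libraries, as SD over mean, was widest for the contractile genes Tagln (27.3%), Acta2 (25.6%) and Myh11 (25.3%) and narrowest for Rgs5 (11.6%). Acta2 has close relatives in other muscles, and reads could be shared among them. Acta1, the skeletal muscle actin gene, had 7.77 to 182 CPM in the 6 libraries with muscle transcripts and 0 to 1.74 CPM in the other 18. Acta2 had 18.6 to 51.3 CPM (median 25.7) in those 6 and 21.3 to 46.9 CPM (median 31.3) in the other 18. The ranges overlapped, but all of those 6 except WT saline 12 were Th-Cre libraries, and WT saline 12 held the 51.3 CPM. Whether reads were shared was not tested.

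**Figure D1:**
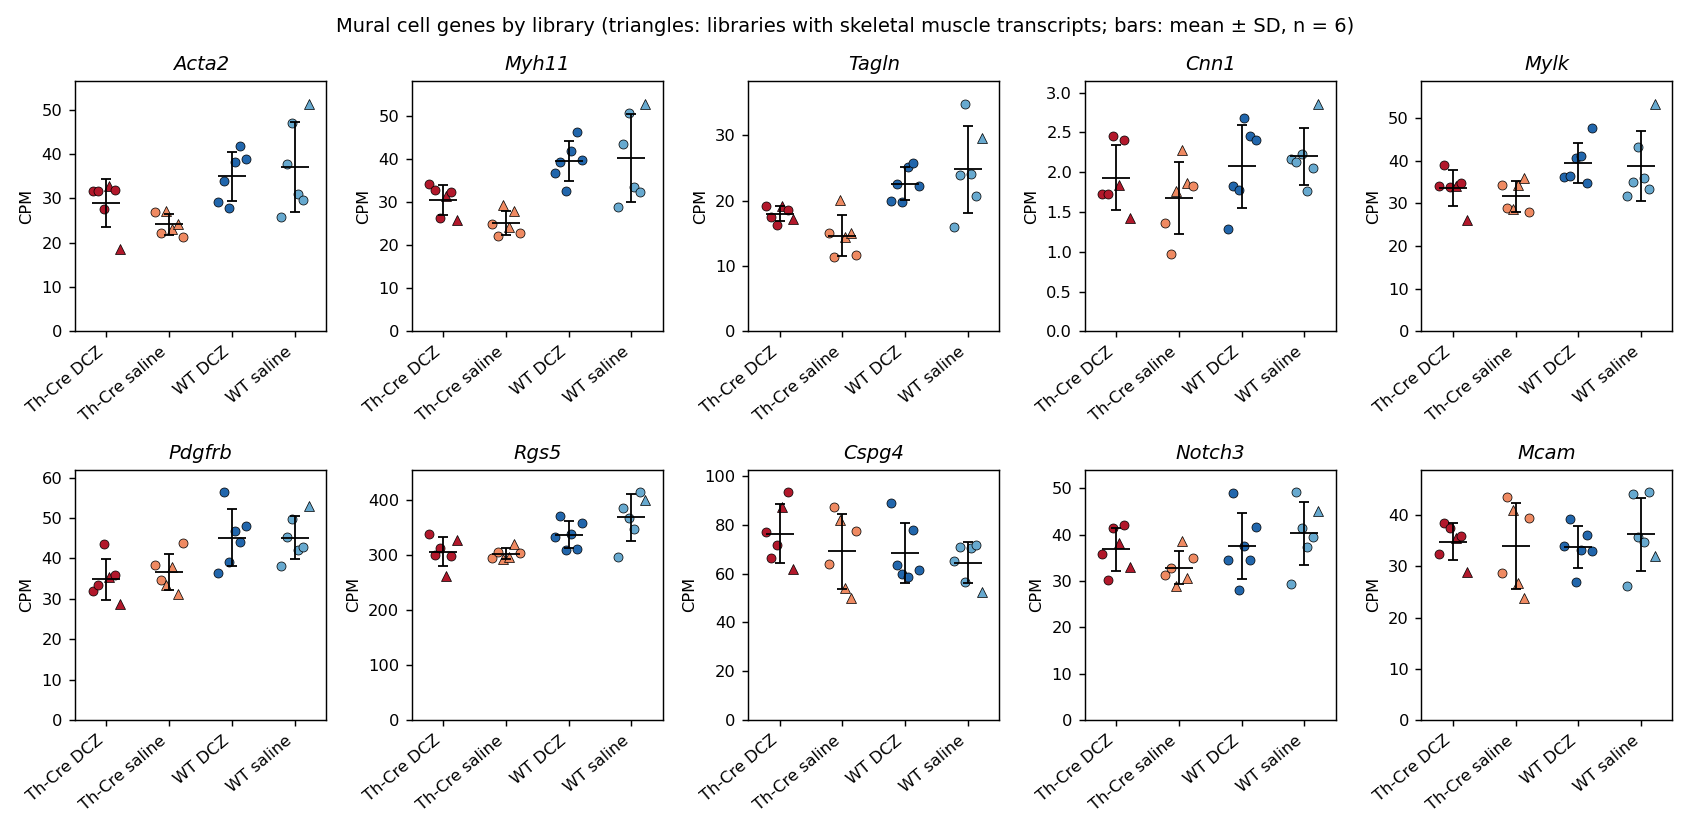
CPM of the 10 mural cell genes (y axes) in each library, by group (x axes). Points are libraries, triangles those with skeletal muscle transcripts, and bars the mean ± SD of 6 mice. Myh11 averaged 25.2 CPM in Th-Cre saline mice and 40.3 CPM in WT saline mice.

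Without ligand, contractile genes were lower in Th-Cre than in WT brown fat. Of the 10 mural genes, 6 were lower in Th-Cre saline mice than in WT saline mice and none was higher (edgeR quasi-likelihood test, Benjamini-Hochberg adjusted p under 0.05). Across all 13129 genes tested, 12.4% were lower. The median log2 fold change was -0.30 over the 10 genes and -0.01 over all genes tested. The 6 were Tagln, Myh11, Acta2, Mylk, Rgs5 and Pdgfrb, that is, 4 of the 5 contractile genes and 2 of the 5 others.

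Tagln had 11.4 to 20.1 CPM (median 14.7) in Th-Cre saline mice, against 15.9 to 34.8 CPM (median 23.9) in WT saline mice. All but 1 of the 6 Th-Cre libraries lay below every WT library, the exception being DN2087. The level in Th-Cre was 59.4% of that in WT (log2 fold change -0.75 ± 0.145 SE, adjusted p = 0.00167). Tagln shares its locus on chromosome 9 (GRCm38, 45929619 to 45936058, minus strand) with Pcsk7 and Gm48529 on the other strand. The sources used here do not say whether strand entered the counting.

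Myh11, on chromosome 16 (14194535 to 14291372), had 22.1 to 29.2 CPM (median 24.5) in Th-Cre saline mice, against 28.8 to 52.8 CPM (median 38.4) in WT saline mice. Again 5 of 6 Th-Cre libraries lay below all WT libraries. The level was 62.7% of that in WT (log2 fold change -0.67 ± 0.127, adjusted p = 0.0016). Acta2, on chromosome 19 (34241090 to 34255590), had 21.3 to 27.2 CPM (median 23.6) in Th-Cre saline mice, against 25.7 to 51.3 CPM (median 34.4) in WT saline mice. Here 4 Th-Cre libraries lay below the whole WT range. The level was 65.5% of that in WT (log2 fold change -0.61 ± 0.147, adjusted p = 0.00548).

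Smaller differences passed for 3 further genes, and the ranges of the groups overlapped in each. Mylk had 27.9 to 35.9 CPM (median 31.5) in Th-Cre saline mice, against 31.8 to 53.3 CPM (median 35.4) in WT saline mice, with a log2 fold change of -0.29 ± 0.0971 (adjusted p = 0.0295). Rgs5 had 292 to 320 CPM (median 300) in Th-Cre saline mice, against 296 to 413 CPM (median 376) in WT saline mice, with a log2 fold change of -0.28 ± 0.0713 (adjusted p = 0.00669). Pdgfrb had 31.2 to 43.7 CPM (median 36.3) in Th-Cre saline mice, against 38.2 to 52.9 CPM (median 43.9) in WT saline mice, with a log2 fold change of -0.30 ± 0.108 (adjusted p = 0.0426). The Rgs5 levels lay close together in Th-Cre saline mice and further apart in WT saline mice. Mylk lies on chromosome 16 (34745210 to 35002420, plus strand) and Rgs5 on chromosome 1 (169655501 to 169695813, plus strand).

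The other 4 genes did not pass. Notch3 averaged 32.9 ± 3.49 CPM in Th-Cre saline mice and 40.3 ± 6.81 CPM in WT saline mice (SD, n = 6 each; adjusted p = 0.0772). Cnn1 averaged 1.68 ± 0.455 CPM in Th-Cre saline mice and 2.2 ± 0.363 CPM in WT saline mice (adjusted p = 0.155). Mcam had a log2 fold change of -0.10, with a 95% confidence interval of -0.36 to 0.15 (adjusted p = 0.567). Cspg4 was the only gene with a positive value, 0.09, with an interval of -0.16 to 0.34 (adjusted p = 0.61).

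In WT saline mice, the library of mouse 2 was the lowest of its group for 8 of the 10 genes and that of mouse 12, which held muscle transcripts, the highest for 5. Leaving out each of the 24 libraries in turn kept the count of lower genes between 4 and 7. Pdgfrb lost its call in 10 of these 24 fits and Mylk in 6, while Tagln, Myh11, Acta2 and Rgs5 kept theirs in all 24. Without all 6 libraries with muscle transcripts, the count was 2 of 10: Tagln at -0.89 (adjusted p = 0.0339) and Myh11 at -0.69 (adjusted p = 0.0495). Acta2 was then at -0.53 (adjusted p = 0.0719), Rgs5 at -0.26 (0.0923), Mylk at -0.23 (0.19) and Pdgfrb at -0.16 (0.476). Calls over all genes were then 57 higher and 52 lower, against 1643 and 1627 with all libraries. In males alone only Myh11 passed, and in females alone no mural gene did.

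Endothelial markers were lower in the same comparison. Of 10 fixed endothelial genes, 8 were lower in Th-Cre saline mice than in WT saline mice, where 12.4% of all genes were lower. Their median log2 fold change was -0.47. Their summed level was 755 to 843 CPM in Th-Cre saline mice and 765 to 1436 CPM in WT saline mice. None of the 10 endothelial markers was at 0 in any library, and none was called without the 6 libraries with muscle transcripts. Of 9 fibroblast and preadipocyte markers, none was called and the median was 0.16. The 13 skeletal muscle markers had a median of 2.53, none was called, and 10 of the 13 were at 0 in at least 1 library. The part of endothelium or muscle in the mural gene result was not tested.

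**Figure D2:**
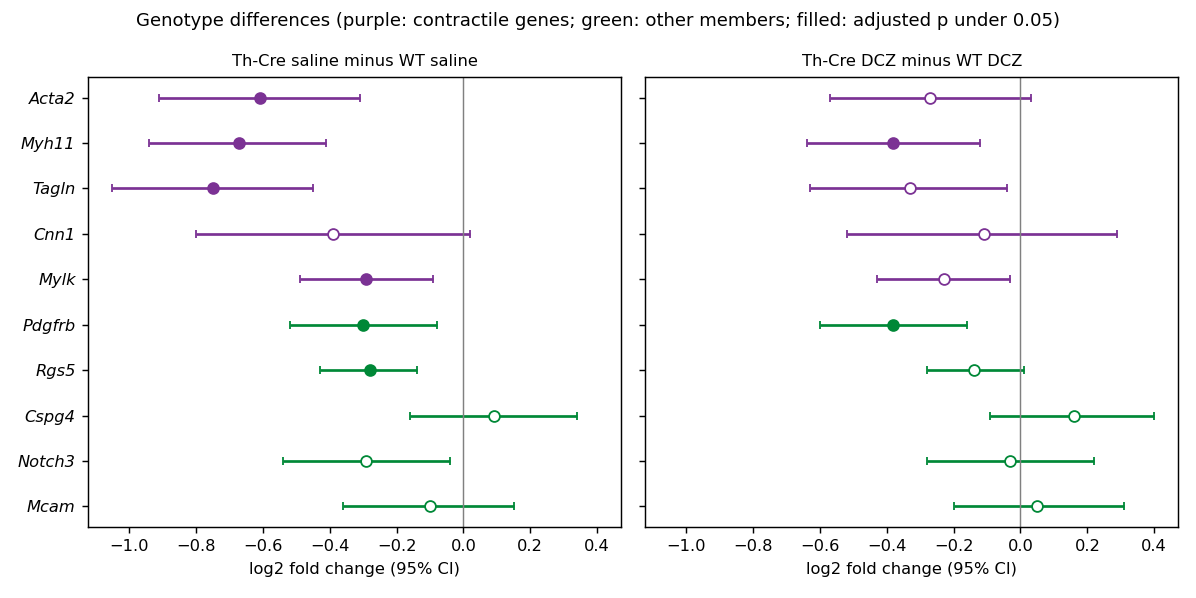
Log2 fold change of each mural cell gene with its 95% confidence interval (x axis), Th-Cre minus WT, in saline mice (left) and DCZ mice (right). Filled points had an adjusted p under 0.05: 6 genes in saline mice and 2 in DCZ mice, all of them lower in Th-Cre.

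Given DCZ, Th-Cre mice again had less Myh11 and Pdgfrb RNA than WT mice. These were 2 of the 10 genes, and none was higher, where 7.02% of all genes tested were lower. The median over the 10 was -0.19, against 0.00 over all genes. Pdgfrb, on chromosome 18, had 28.6 to 43.6 CPM (median 34.3) in Th-Cre DCZ mice, against 36.5 to 56.3 CPM (median 45.4) in WT DCZ mice. All but 1 of the Th-Cre libraries lay below every WT library (log2 fold change -0.38 ± 0.108, adjusted p = 0.0227). Myh11 had 25.8 to 34.1 CPM (median 31.8) in Th-Cre DCZ mice, against 32.6 to 46.3 CPM (median 39.6) in WT DCZ mice. Of the 6 Th-Cre libraries, 4 lay below all WT libraries (log2 fold change -0.38 ± 0.126, adjusted p = 0.0482).

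Tagln had the only complete separation of these groups. It had 16.3 to 19.2 CPM (median 18) in Th-Cre DCZ mice, against 19.8 to 25.8 CPM (median 22.4) in WT DCZ mice, and 1.68% of all genes tested lay lower in all 6 in this way. It did not pass the test (log2 fold change -0.33 ± 0.143, adjusted p = 0.119). Mylk at -0.23 (adjusted p = 0.103), Acta2 at -0.27 (0.212) and Rgs5 at -0.14 (0.196) did not pass either. The rest ran close to 0, with Cnn1 at -0.11, Notch3 at -0.03, Mcam at 0.05 and Cspg4 at 0.16, and adjusted p of 0.39 to 0.903.

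Both calls under DCZ depended on single libraries. Of the 24 fits with 1 library left out, Myh11 lost its call in 16, saline libraries included, and Pdgfrb in 4. The count was 1 in 11 of these fits and 0 without WT DCZ 3, WT DCZ 5, Th-Cre DCZ DN2072 or Th-Cre DCZ DN2091, each left out alone, and 0 without the 6 libraries with muscle transcripts, where Pdgfrb was at -0.32 (adjusted p = 0.116) and Myh11 at -0.33 (0.155). Of the endothelial markers, 3 of 10 were lower in this comparison, where 7.02% of all genes were. Their summed levels were 737 to 903 CPM in Th-Cre DCZ mice and 810 to 1252 CPM in WT DCZ mice. Of the skeletal muscle markers, 3 of 13 were higher, where 6.75% of all genes were. Summed, they had 3.59 to 634 CPM in Th-Cre DCZ mice and 4.74 to 45.6 CPM in WT DCZ mice. With 1 library left out, the counts ran from 1 to 4 for endothelium and 0 to 7 for muscle. The part of endothelium or muscle in the 2 calls was not tested.

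No mural gene passed the test for a response to DCZ in Th-Cre mice at 30 minutes. This was 0 of 10 in Th-Cre DCZ mice against Th-Cre saline mice, where 0.0229% of all genes did, and DESeq2 and limma-voom also called none. At an unadjusted p under 0.05, edgeR gave 1, Myh11. Myh11 had 25.8 to 34.1 CPM (median 31.8) in Th-Cre DCZ mice, against 22.1 to 29.2 CPM (median 24.5) in Th-Cre saline mice. All 6 DCZ values exceeded the saline mean, and 4 exceeded every saline value (log2 fold change 0.27 ± 0.128, unadjusted p = 0.0442, adjusted p = 0.848). Tagln had 16.3 to 19.2 CPM (median 18) in Th-Cre DCZ mice, against 11.4 to 20.1 CPM (median 14.7) in Th-Cre saline mice, so that the DCZ values lay within the saline range (0.29 ± 0.146, adjusted p = 0.881). Acta2 was at 0.26, with a 95% interval of -0.05 to 0.56. The log2 fold change was positive for 9 of the 10 genes, with a median of 0.16, and Pdgfrb, at -0.08, was the exception. The intervals of the 10 genes ran from -0.30 to 0.60, and differences within these limits are not excluded.

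WT mice given DCZ also showed no called mural gene against WT saline mice, where 0.00762% of all genes passed. No mural gene had an unadjusted p under 0.05 in edgeR, and DESeq2 and limma-voom called none. Rgs5 had the smallest p: 309 to 370 CPM (median 335) in WT DCZ mice, against 296 to 413 CPM (median 376) in WT saline mice (log2 fold change -0.13 ± 0.0711, adjusted p = 0.601). Tagln came next at -0.13 ± 0.141 (adjusted p = 0.794). Most of these values were negative, 7 of 10, with a median of -0.08. Of the lower 6 WT library numbers 5 were DCZ mice, so the order of WT libraries and the ligand are hard to separate. With a term for the lower or upper WT library numbers, Rgs5 was at 0.03 and Tagln at 0.12.

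The difference between the 2 DCZ responses, Th-Cre less WT, passed for none of the 10 genes, where 0.00762% of all genes passed, and DESeq2 and limma-voom called none. Tagln had the smallest p, with a difference of 0.42 ± 0.203 on the log2 scale (unadjusted p = 0.0489, adjusted p = 0.666), and it was the 1 gene under an unadjusted 0.05 in edgeR. Myh11 followed at 0.30 ± 0.179 (adjusted p = 0.719), and Acta2 was at 0.34 ± 0.207 (adjusted p = 0.724). The smaller genotype difference of these genes in DCZ mice than in saline mice is the same quantity, and it was not distinguishable from 0. The comparisons share libraries, since each group enters both a genotype and a DCZ comparison.

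**Figure D3:**
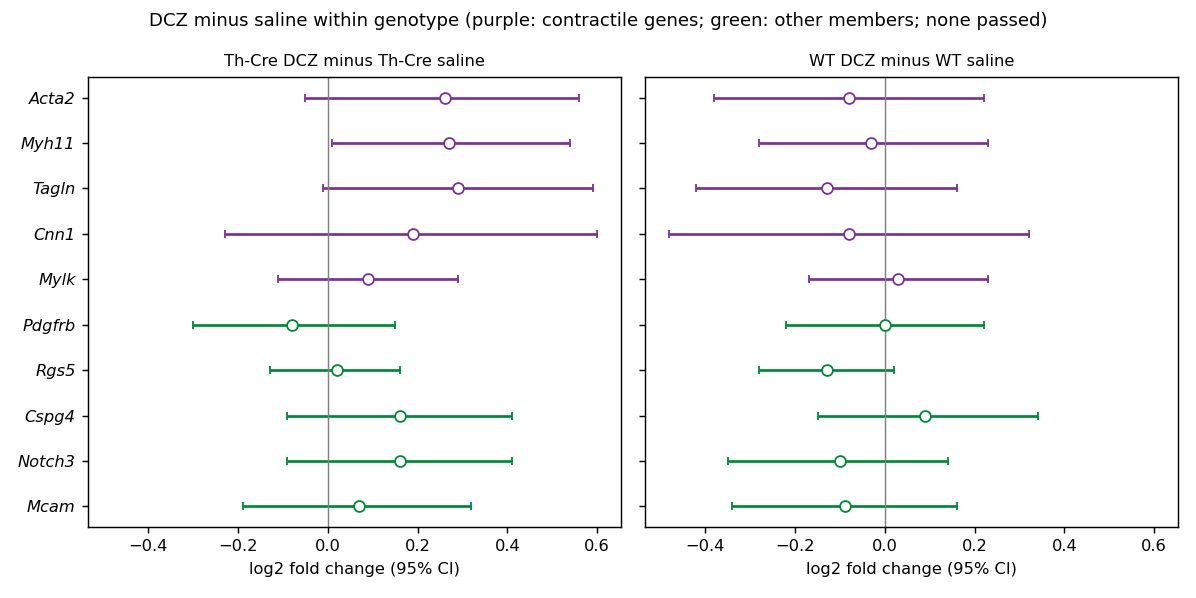
Log2 fold change of each mural cell gene with its 95% confidence interval (x axis), DCZ minus saline, in Th-Cre mice (left) and WT mice (right). No gene passed in either genotype. In Th-Cre mice 9 of 10 values are positive, with Pdgfrb at -0.08, and in WT mice 3 of 10 are.

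Females and males differed in 1 mural gene, where 8.07% of all genes tested differed in either direction. Whether the mural count departs from that share was not tested. Mylk, the kinase that starts smooth muscle contraction, had 31.8 to 53.3 CPM (mean 38.5 ± 6.55) in females and 26.1 to 41.1 CPM (mean 33.1 ± 4.39) in males (SD, n = 12 each). Its log2 fold change, female minus male, was 0.22 ± 0.0684 (adjusted p = 0.0458), and 4.11% of all genes were higher in females. Limma-voom gave an adjusted p of 0.0579, and without the 6 libraries with muscle transcripts the value was 0.14 (adjusted p = 0.253). Mylk shares its locus with E130310I04Rik, Gm21691 and 1700119H24Rik on the other strand, as Notch3 does with Gm17276 and Mcam with Gm10687. Muscle markers were higher in females for 9 of 13, with a median log2 fold change of 3.41, and their part in the Mylk difference was not tested. With 1 library left out, this count of muscle markers ran from 1, without Th-Cre saline DN2094, to 13. Cspg4 averaged 64 ± 10.9 CPM in females and 75.3 ± 11 CPM in males, a log2 fold change of -0.24 ± 0.0843 that did not pass (adjusted p = 0.079). Mcam averaged 31.8 ± 5.05 CPM in females and 37.6 ± 5.14 CPM in males, also at -0.24 (adjusted p = 0.0859). The count of 1 ranged from 0 to 2 when single libraries were left out. It was 0 without 16 of the 24, each left out alone.

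Cspg4 and Mcam, a pericyte proteoglycan and an adhesion molecule, separated the sexes completely in Th-Cre saline mice. Cspg4 had 50.2, 54.3 and 64.0 CPM in the 3 females and 77.5, 82.0 and 87.2 CPM in the 3 males. Mcam had 23.9, 26.8 and 28.7 CPM in these females and 39.5, 41.0 and 43.5 CPM in these males. Mylk separated the sexes the other way, with 34.2, 34.3 and 35.9 CPM in females and 27.9, 28.6 and 28.8 CPM in males. How common a separation in the direction of Mylk is among all genes was not tested. In Th-Cre saline mice 9.94% of all genes tested had all females below all males, the direction of Cspg4 and Mcam. In WT saline mice Cspg4 had 52.5, 56.4 and 65.4 CPM in females and 70.5, 71.0 and 71.7 CPM in males, where the share was 6.98%, while the sexes overlapped for Mcam. In both DCZ groups the sexes overlapped for Cspg4 and Mcam. The difference between saline and DCZ groups was not tested, and 2 of the 3 Th-Cre saline females, and 1 of the 3 males, gave libraries with skeletal muscle transcripts.

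Within groups, the mural genes did not vary as 1 block. After the group means were removed, 6 of the 45 pairs were correlated over the 24 libraries (permutation within groups, 100000 draws, adjusted over 45 pairs), all positively. The tightest were the contractile genes: Acta2 with Myh11 had Pearson r = 0.90 and Spearman rho = 0.87, Myh11 with Tagln 0.85 and 0.84, and Acta2 with Tagln 0.76 and 0.83. For Acta2 with Myh11 the permutation p was 1e-05, the smallest these permutations can give, and the adjusted p was 0.000225. Pdgfrb with Notch3, both receptors of pericytes, had r = 0.74 and rho = 0.78 (adjusted p = 0.00191), and Acta2 with Mylk r = 0.71 and rho = 0.55 (adjusted p = 0.0149). Cspg4 with Mcam had r = 0.64 and rho = 0.63 (adjusted p = 0.0353). These adjusted p belong to r. By rho, 5 of the 45 pairs passed the same permutation test, and Acta2 with Mylk did not (adjusted p = 0.0858).

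Leaving out the 2 libraries farthest from the median of the first gene, r was 0.91 for Acta2 with Myh11, 0.81 for Myh11 with Tagln, 0.79 for Acta2 with Tagln, 0.68 for Pdgfrb with Notch3, 0.58 for Acta2 with Mylk and 0.62 for Cspg4 with Mcam. The contractile trio and the pair of Pdgfrb and Notch3 also passed without the 6 libraries with muscle transcripts, and when the means of each sex in each group were removed. Acta2 with Mylk did not pass in either, at r = 0.57 without those libraries and 0.70 with sex means removed. Cspg4 with Mcam did not pass in either, at r = 0.36 and 0.25. Among the 10 contractile pairs r ran from 0.35 to 0.90 with a median of 0.53, and among the 25 pairs of 1 contractile and 1 other gene from -0.52 to 0.51 with a median of 0.21. The lowest, Mylk with Cspg4, had an adjusted p of 0.0529.

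**Figure D4:**
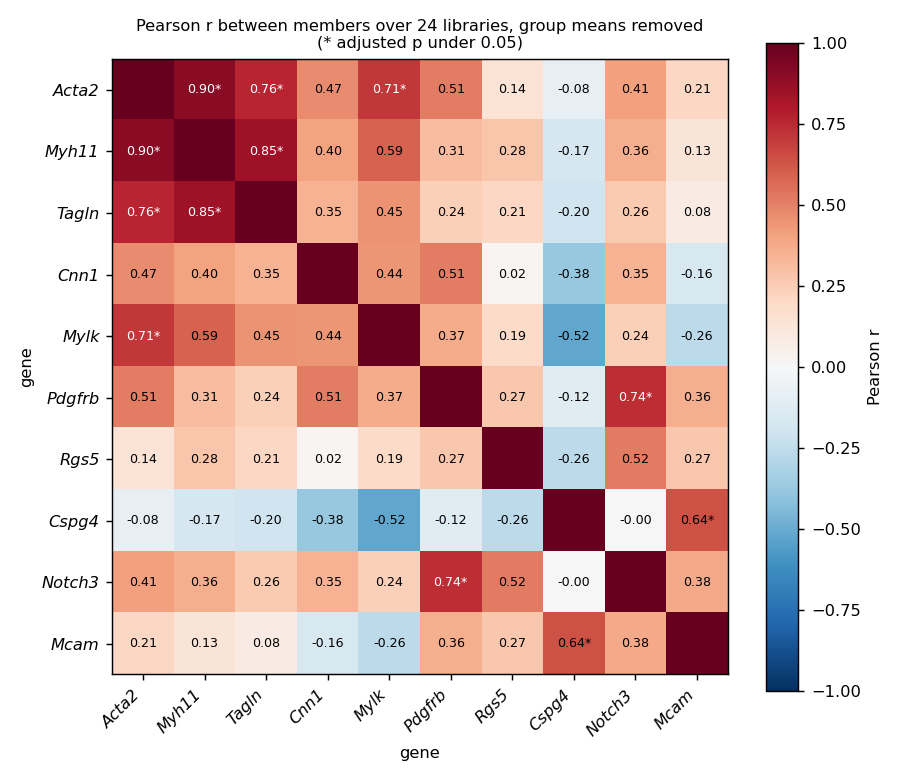
Pearson r between each pair of the 10 mural cell genes (both axes) over 24 libraries, with group means removed. Asterisks mark 6 pairs with an adjusted permutation p under 0.05, of which Acta2 with Myh11 has the highest r, 0.90.

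Outside the 10 genes, the one whose within-group variation was most like that of the 5 contractile genes was Myl9 (r = 0.90, rho = 0.85 over 24 libraries), the regulatory light chain of smooth muscle myosin that Mylk phosphorylates. Hoxb5 (0.84), Sra1 (0.83), Tinagl1 (0.80) and Abcg1 (0.78) followed. For the 5 other mural genes those most alike included Pcdh1 (0.84), Kirrel (0.83), Slco2b1 (0.82) and Adgre5 (0.82), and for all 10 together they included Actn1 (0.86), Gipr (0.85), Pros1 (0.84) and Als2cl (0.83). They were picked for their high r among all genes tested, so they are given as a description.

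The start regions of the members are shown because Acta2, the leading contractile gene, carries the best known element of smooth muscle promoters, the CArG box bound by serum response factor. RefSeq entries (GRCm38.p6) were found for 7 of the 10 genes, and the 250 bases before the start are given for the 3 of them that were lower in Th-Cre saline mice. Capitals mark a CArG box, allowing 1 inner base other than A or T, and the motif TGGGAA where they occur in the window.

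Acta2, chr19:34255374-34255623, minus strand: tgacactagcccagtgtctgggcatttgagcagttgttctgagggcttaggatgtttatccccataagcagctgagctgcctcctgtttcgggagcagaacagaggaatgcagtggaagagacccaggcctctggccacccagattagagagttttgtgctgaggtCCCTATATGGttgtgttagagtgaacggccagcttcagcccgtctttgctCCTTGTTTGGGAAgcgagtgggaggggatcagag
Mylk, chr16:34784700-34784949, plus strand: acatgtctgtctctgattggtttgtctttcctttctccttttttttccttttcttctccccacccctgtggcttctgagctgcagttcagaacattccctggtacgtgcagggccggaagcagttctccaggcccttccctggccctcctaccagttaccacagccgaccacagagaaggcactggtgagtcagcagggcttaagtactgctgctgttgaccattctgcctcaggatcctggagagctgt
Rgs5, chr1:169655251-169655500, plus strand: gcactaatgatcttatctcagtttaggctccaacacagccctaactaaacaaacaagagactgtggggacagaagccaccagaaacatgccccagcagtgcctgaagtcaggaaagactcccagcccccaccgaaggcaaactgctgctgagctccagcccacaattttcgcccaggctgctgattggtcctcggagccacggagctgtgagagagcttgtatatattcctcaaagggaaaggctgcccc

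Acta2 holds 2 such boxes, CCCTATATGG ending 75 bases and CCTTGTTTGG ending 25 bases before the start, and TGGGAA overlaps the second. The other 6 matched genes hold neither motif in this window, on either strand. Of 32851 mouse promoters of this length, 8.59% hold such a CArG box, 1.47% one with A or T at every inner base, and 21.6% TGGGAA on either strand. The Mylk window lies inside the annotated gene, before the start of one of its transcripts. The Acta2 window also lies in part inside its annotated gene, which reaches to 34255590, and both boxes fall in that part. Distances are counted from the start in the RefSeq entry. A match is a run of letters and not a bound site.

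Other genes of the contractile machinery also fell in Th-Cre saline mice. Of 18 tested genes in a list of 20, 8 were lower than in WT saline mice and none was higher, where 12.4% of all genes were lower and 12.5% higher. The median log2 fold change was -0.34, against -0.01 over all genes. Ppp1r14a, an inhibitor of myosin phosphatase, averaged 2.84 CPM in Th-Cre saline mice and 5 CPM in WT saline mice (-0.81 ± 0.131, adjusted p = 7.51e-04). Myl6, a myosin light chain, was at -0.49, Myl9 at -0.52 and Smtn, which encodes smoothelin, at -0.51. Under DCZ 3 of the 18 were lower in Th-Cre, where 7.02% of all genes were: Ppp1r14a at -0.54, Myl6 at -0.28 and Smtn at -0.38. Without the 6 libraries with muscle transcripts the counts were 2 of 19 tested in saline mice and 0 in DCZ mice, and without WT DCZ 5, WT DCZ 10, Th-Cre DCZ DN2072, DN2205 or DN2091 the count in DCZ mice was 1. The saline count was 0 in females alone, and the DCZ count was 0 in each sex alone.

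Among regulators of the smooth muscle programme, 3 of 11 tested were lower in Th-Cre saline mice and none was higher, with a median of -0.25, where 12.4% of all genes were lower. They were Klf4 (-0.62, adjusted p = 0.0191), Foxc1 (-0.93, 0.0217) and Mef2c (-0.40, 0.0379). Klf4 is known for repressing contractile genes, whereas Mef2c activates the gene of their coactivator Myocd, which was too low to test. The count of lower genes was 1 without WT saline 12, Th-Cre saline DN2201 or DN2086, and 0 without the 6 libraries with muscle transcripts. Without WT saline 2, 3 were lower and 2 higher. In DCZ mice none of the 11 passed in edgeR, with 5 under an unadjusted p of 0.05, and DESeq2 called 2. Mef2c was at -0.39 (adjusted p = 0.0627) and Srf at 0.52 (adjusted p = 0.0649).

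Further pericyte genes were lower as well. In Th-Cre saline mice 7 of 15 were lower than in WT saline mice and none was higher, with a median of -0.29, where 12.4% of all genes were lower. Kcnj8, the pore of a potassium channel of pericytes, averaged 19.3 CPM in Th-Cre saline mice and 28.5 CPM in WT saline mice (-0.56 ± 0.1, adjusted p = 0.0013). Rgs4 was at -0.76, Ndufa4l2 at -0.66 and the connexin gene Gjc1 at -0.59. In DCZ mice 4 were lower and 1 higher, where 7.02% of all genes were lower and 6.75% higher: Kcnj8 at -0.56, Rgs4 at -0.54 and Cox4i2 at -0.85 were among the lower, and Steap4, a metalloreductase, was higher at 0.56. The saline count was 4 without WT saline 12 and 0 without the 6 libraries with muscle transcripts. The DCZ count was 2 without those 6, 2 without WT DCZ 5 or Th-Cre DCZ DN2072, and 3 without WT DCZ 10, Th-Cre DCZ DN2205 or DN2075.

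Ligands of the 2 receptors included Pdgfb, which was lower in Th-Cre mice. In Th-Cre saline mice 4 of 18 ligands and partners of Pdgfrb and Notch3 were lower and 1 was higher, with a median of -0.21, where 12.4% of all genes were lower and 12.5% higher. Pdgfb, the endothelial ligand of Pdgfrb, averaged 32.3 CPM in Th-Cre saline mice and 55.4 CPM in WT saline mice (-0.78 ± 0.148, adjusted p = 0.00163). Pdgfa was at -0.44 and the Notch ligand gene Jag2 at -0.56, while Rbpj, the DNA-binding partner of activated Notch, was higher at 0.37. In DCZ mice Pdgfb was the 1 lower gene, at -0.55, while Rbpj (0.42), Jag1 (0.34) and Notch2 (0.34) were higher, where 7.02% of all genes were lower and 6.75% higher. Without the 6 libraries with muscle transcripts the count was 0 of 18 in saline mice. In DCZ mice it was then 1 higher and 0 lower of 18, so Pdgfb was called in neither. Without WT saline 7 or WT saline 8 the saline count was 3.

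Among receptors through which sympathetic and vasoactive transmitters act on vessels, 4 of 13 tested were lower and 2 higher in Th-Cre saline mice, with a median of 0.14, where 12.4% of all genes were lower and 12.5% higher. Ednrb, an endothelin receptor, was at -0.65, the adenosine receptor gene Adora2a at -0.80 and the angiotensin receptor gene Agtr1a at -0.47, while the alpha-adrenergic receptor gene Adra1d was higher at 0.78. In DCZ mice Ednrb was lower than in WT, at -0.48 (adjusted p = 0.0257). It did not pass without the 6 libraries with muscle transcripts (-0.47, adjusted p = 0.0511), or without WT DCZ 3, WT DCZ 10, Th-Cre DCZ DN2072 or DN2075, each left out alone (adjusted p of 0.0527 to 0.0654). Without the 6 libraries with muscle transcripts 1 gene passed in saline mice. The saline count, 6 in both directions, was 3 without WT saline 12 or Th-Cre saline DN2086.

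**Figure D5:**
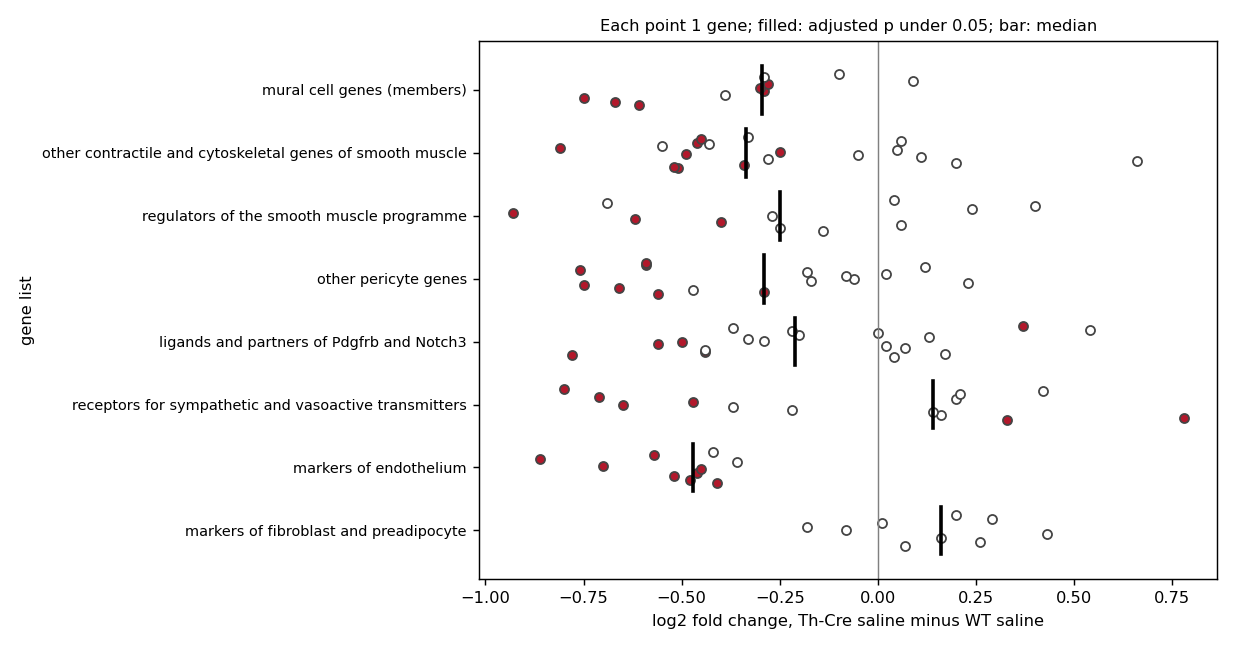
Log2 fold change of each tested gene, Th-Cre saline minus WT saline (x axis), for the mural cell genes, 5 lists of related genes and 2 lists of cell type markers (y axis). Filled points had an adjusted p under 0.05 and bars are medians: -0.30 for the mural genes, -0.47 for endothelium and 0.16 for fibroblasts and preadipocytes.

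None of the tested genes of the contractile, regulator, pericyte and ligand lists passed in either DCZ comparison or in the difference between the responses. In Th-Cre DCZ mice against Th-Cre saline mice, the 2 genes of smallest p in each of these lists stood as follows. Srf was at 0.46, Foxc1 at 0.70, Steap4 at 0.41, Gja4 at 0.34, Jag1 at 0.20, Pdgfa at 0.31, Cald1 at 0.16 and Csrp1 at 0.18, with adjusted p of 0.712 to 0.913. Among receptors Agtr1a was at 0.30 (adjusted p = 0.881).

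In WT DCZ mice against WT saline mice the values of smallest p were Mrtfa at -0.34 and Mef2c at -0.26 among regulators, Cald1 and Ppp1r12a both at -0.15 among contractile genes, Gja4 at -0.36 and Steap4 at -0.21 among pericyte genes, Notch2 at -0.17 and Dll4 at -0.33 among ligands and partners, and Ednrb at -0.19 and P2ry6 at 0.31 among receptors. For the difference between responses they were Mrtfa and Srf, both at 0.65, Gja4 at 0.70, Steap4 at 0.61, Jag1 at 0.33, Pdgfa at 0.48, Cald1 at 0.31, Ppp1r12a at 0.29 and, among receptors, Ednra at 0.39. Between the sexes 4 of the 74 tested genes of the 5 lists passed, where 8.07% of all genes did: Des, which encodes desmin, was higher in females (0.24), and Art3 (-0.23), Nrarp (-0.58) and Ptger3 (-0.51) were lower. Des is also abundant in skeletal muscle. Without the 6 libraries with muscle transcripts Des (0.22, adjusted p = 0.0494) and Nrarp (-0.76, 0.0109) passed, and Art3 (-0.21, 0.0939) and Ptger3 (-0.43, 0.202) did not. Ptger3 also missed in limma-voom (0.0546) and in 17 of 24 fits with 1 library left out. Among regulators Klf4, at -0.39, and Tbx18, at 0.25, had the smallest p and did not pass. Without the 6 libraries with muscle transcripts 1 regulator was lower in females. The count was also 1 in DESeq2, with no filter on low counts, and in 3 of 24 fits with 1 library left out.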

How the data were processed

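Libraries of polyadenylated RNA were made with Illumina TruSeq chemistry, per the labels' protocols. The authors' deposited table holds counts per gene as whole numbers. Reads were assigned to transcripts with kallisto 0.44.0 and the build was GRCm38.p6, per the submitters' processing notes. The sources used here do not say how estimates were rounded, which transcripts were indexed or whether strand was used. The authors also deposited a normalized signal per gene, in a table for each genotype; its values are the counts divided by 1 size factor per library. It served as an alternative within each genotype only, as log2(value + 1) in limma. Total counts per library were 11933532 to 22865592, and 13364 genes had no read.

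Counts were analysed in R 4.3.3 with edgeR 4.0.16 (quasi-likelihood test). All 24 libraries entered 1 fit with a term per group and for sex, TMM normalization and filterByExpr with a minimum count of 10, which kept 13129 genes. P-values were adjusted over those genes by the Benjamini-Hochberg method with a threshold of 0.05. CPM are counts per 1000000 of the TMM-scaled library size. Fold changes run in the order named, so negative values are lower in the group named first. Alternatives used DESeq2 1.42.0, limma 3.58.1, other filters and scaling, each sex alone, and each library left out. The edgeR fit alone was tried on simulated data, for the comparison of Th-Cre saline with WT saline mice. The members, the 5 lists and the marker lists were chosen with earlier results of these data known. All called members are named, and up to 4 called genes by smallest p from each list and comparison, or 2 where none was called. A few genes that this rule selects are not reported here. Correlations used log2 CPM with a prior count of 2, less group means.

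Of the 8 marker lists, those of fibroblasts and preadipocytes (9 genes), Schwann cells (8), macrophages (8) and white adipocytes (6 tested) held no called gene in either genotype comparison. Brown adipocyte markers held 2 higher and 3 lower of 8 in Th-Cre saline against WT saline mice. They held 1 higher and 2 lower in Th-Cre DCZ against WT DCZ mice. Of all genes tested, 12.5% were higher and 12.4% lower in the saline comparison, and 6.75% and 7.02% in the DCZ one.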

Additional observations from a re-analysis of the deposited data

Results flagged for a closer look

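One mural gene had a library that stood apart from the others of its group. Acta2, smooth muscle actin, had 18.6 CPM in the Th-Cre DCZ library DN2091, and the nearest of the other 5 Th-Cre DCZ libraries had 27.6 CPM. The gap was 0.634 of the whole range of the group, past the limit for 6 samples by Dixon's criterion. Of 40 combinations of gene and group examined this was the 1 that stood apart, where chance gives about 1 in 20. DN2091 was the lowest of its group for 7 of the 10 mural genes and was among the 6 libraries with skeletal muscle transcripts. Whether these belong together was not tested.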

How the results depend on the processing

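The 3 DCZ comparisons held 0 mural genes under every alternative run. For Th-Cre saline against WT saline mice, the count of 6 was 2 without the libraries with skeletal muscle transcripts, 1 in males alone and 0 in females alone, and 4 to 7 with 1 library left out. It was 4 without WT saline 8, WT saline 9, WT saline 12, Th-Cre saline DN2099 or DN2087. For Th-Cre DCZ against WT DCZ mice, the count of 2 was 1 with no term for sex, 0 without the libraries with muscle transcripts, 0 in each sex alone, and 0 to 2 with 1 library left out. For females against males, the count of 1 was 0 in limma-voom and 0 without the libraries with muscle transcripts, and 0 to 2 with 1 library left out. In females alone, none of the 5 lists held a called gene in Th-Cre saline against WT saline mice, where 2 genes were higher and 4 lower over all genes. In males alone, this comparison called 1 regulator, 3 pericyte genes, 2 ligands or partners and 1 receptor. Fits of fewer libraries hold fewer mice. Correlated pairs numbered 4 or 6. Per length of the longest transcript, Mylk stood at 4.58 and Cspg4 at 8.58 CPM per kb. Signs that turned belonged to values that had not passed. In Th-Cre saline against WT saline mice they were Cspg4 at -0.05 in females and Mcam at 0.01 in males. In Th-Cre DCZ against WT DCZ mice they were Notch3 at 0.07 in females and -0.10 to 0.06 with 1 library left out, Mcam at -0.13 in males and -0.01 to 0.13, and Cnn1 at -0.21 to 0.01. In Th-Cre DCZ against Th-Cre saline females, Pdgfrb was at 0.06 and Gja4 at -0.10. With a term for lower or upper WT library numbers, WT DCZ against WT saline mice gave Rgs5 at 0.03, Tagln at 0.12, Cald1 at 0.04, Dll4 at 0.03 and Ednrb at 0.06. Their cause was not tested. Cnn1, with 15 to 50 reads per library, was the gene most limited by depth.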
